A study of Mus musculus with 2 samples.

Results

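The genes described here are 35 of the 32285 genes in the feature table, chosen by symbol as targets and sensors of ATF4 and of the unfolded protein response. They fall into an amino acid stress arm of 18 genes and a folding arm of 17 genes. All 35 were detected in each group of cells. Levels were read over barcodes in which 1000 or more genes were detected and mitochondrial counts did not exceed 15%, and 9644 of 15961 barcodes met this.

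ATF4 is a transcription factor whose mRNA is translated preferentially when the initiation factor eIF2 is phosphorylated, and it drives amino acid synthesis, uptake and tRNA charging genes as well as Ddit3 (CHOP) and Trib3. The unfolded protein response of the endoplasmic reticulum (ER) has 3 sensors, of which PERK acts through eIF2 and ATF4, IRE1 through splicing of Xbp1 mRNA, and ATF6 through its own cleavage. The arms of IRE1 and ATF6 raise chaperones, disulphide isomerases and degradation factors of the ER. Counts of 3′ mRNA ends do not see ATF4 protein, Xbp1 splicing or ATF6 cleavage, so the levels below are of the mRNAs only.

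The cells were mouse B16F10 melanoma cells that carried GFP and had been taken from WT lung, from Prf1-/- lung and from Prf1-/- bone (crushed knees). Prf1-/- mice lack perforin, with which cytotoxic T and NK cells open the membrane of a target, and the tumour cells themselves were the same line in all groups. Live cells with GFP and without the leukocyte marker CD45 were sorted after collagenase digestion, for 20 minutes from lung and 30 minutes from knee at 37 °C, so digestion and site cannot be told apart. Each source carried 1 of 3 hashtag antibodies and all were run together, as 1 RNA library and 1 hashtag library. The numbers and ages of the mice are not given in the sources used here.

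A cell was given a source when its largest hashtag count was at least 2 times the next. This gave 1227 WT lung cells (3865546 UMIs), 1520 Prf1-/- lung cells (4726709 UMIs) and 385 Prf1-/- bone cells (1299480 UMIs). A further set held 6270 cells (16458141 UMIs) whose barcodes have no entry in the hashtag matrix. The sources of these unlisted cells, and their shares, are not known, so the set is no condition. The RNA and hashtag matrices shared 4204 barcodes, and 242 cells with no clear hashtag were left out. Each condition was 1 hashtag group, so no difference between conditions could be tested against replicates. Intervals are exact 95% intervals that cover counting error only. A gene is called past 1.5-fold where 2 summed groups differ by at least that much at a mean of at least 20 CPM (UMIs per 1000000 UMIs of the group). Melanoma markers summed to between 10125 and 13287 CPM in the 4 sets, T and NK cell markers to 0 in the 3 hashtag groups, and lung epithelium markers to 203 CPM in WT lung against 13.5 in Prf1-/- lung and 19.2 in Prf1-/- bone.

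The 2 arms differed in the motifs found around their start sites, though many genes of each arm held none. The promoter table of RefSeq (GRCm38.p6, the build named mm10 elsewhere) held 30 of the 35 genes, as windows from 250 bases before to 50 bases after the start site. It was searched on both strands for 4 published motifs: the ATF4 composite element TGATGNAA (CARE), the ER stress element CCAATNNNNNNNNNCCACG (ERSE), its variant ERSE-II (ATTGG, any base, then CCACG) and the XBP1-type element TGACGTGG. CARE was held by 6 of the 16 amino acid stress genes with a window (37.5%), by 1 of the 14 folding genes (7.14%) and by 4.51% of 27025 genes. ERSE was held by 6 of 14 folding genes (42.9%), by 0 of 16 amino acid stress genes and by 0.137% of all genes. ERSE-II was found in 2 folding genes and 12 genes in all, and TGACGTGG in none of the 30 and in 0.714% of all genes. Herpud1 was the 1 gene of the 30 whose window held both CARE and an ER stress element, a combination that 11 of the 27025 genes showed. Since the arms were drawn up from what is known of their regulation, these shares describe the choice of genes and are no test of it.

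The stretches below show these motifs for 4 amino acid stress genes and 4 folding genes whose levels are given later. Each is read 5′ to 3′ on the strand of the gene, upstream of the start site. Capitals mark the fixed letters of a motif, on either strand. The Asns stretch is chr6:7693210-7693252 (minus strand), Chac1 is chr2:119351029-119351076 (plus), Slc7a11 is chr3:50443633-50443699 (minus) and Gars is chr6:55037951-55037998 (plus). The Hspa5 stretch is chr2:34772005-34772063 (plus), Pdia6 is chr12:17266471-17266529 (plus), Creld2 is chr15:88819500-88819558 (plus) and Herpud1 is chr8:94386297-94386407 (plus).
Asns: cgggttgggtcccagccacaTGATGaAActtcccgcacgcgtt
Chac1: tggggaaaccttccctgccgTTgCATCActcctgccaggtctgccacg
Slc7a11: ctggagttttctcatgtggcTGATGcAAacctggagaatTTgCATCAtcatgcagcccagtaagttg
Gars: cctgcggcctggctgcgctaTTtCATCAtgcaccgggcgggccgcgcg
Hspa5: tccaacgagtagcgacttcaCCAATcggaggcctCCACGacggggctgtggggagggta
Pdia6: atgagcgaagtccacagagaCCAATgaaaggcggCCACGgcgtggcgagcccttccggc
Creld2: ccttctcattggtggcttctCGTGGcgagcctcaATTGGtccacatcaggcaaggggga
Herpud1: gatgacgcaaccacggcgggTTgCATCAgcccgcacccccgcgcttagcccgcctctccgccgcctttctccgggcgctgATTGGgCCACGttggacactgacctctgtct

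Slc7a11 carried CARE in both orientations, and Hsp90b1, which is not printed, carried ERSE in both. Trib3 also held CARE, 14 to 21 bases after its start site, and Aars held it on either side of the start. Atf4, Ddit3, Slc3a2 and Phgdh showed none of the 4 motifs in this window.

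Folding genes took the larger share of the mRNA. Their 17 levels summed to 4599 CPM in WT lung, 4372 in Prf1-/- lung, 4373 in Prf1-/- bone and 4510 in the unlisted cells. The 18 amino acid stress genes summed to 1783, 1793, 1668 and 1977 CPM in the same order. A UMI stands for 1 captured 3′ end and is not divided by gene length. Orders between genes are therefore orders of captured ends.

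Among the regulators, Atf4 itself stood at 125.0 CPM in WT lung, 138.8 in Prf1-/- lung, 123.9 in Prf1-/- bone and 154.1 in the unlisted cells. Ddit3, the pro-apoptotic CHOP factor that ATF4 induces, stood at 160.7, 189.1, 104.7 and 174.0 CPM. It was low in bone, where its interval of 87.8 to 124 CPM lay below those of both lung groups. Trib3, a pseudokinase that ATF4 and CHOP induce, was read at 16.3, 19.04, 21.55 and 28.01 CPM, highest in the unlisted cells. Chac1, which breaks down glutathione, and Sesn2, a leucine-binding inhibitor of mTORC1, were sparse, between 10.8 and 15.1 CPM and between 8.02 and 13.1 CPM. Their 14 and 17 UMIs in bone leave wide intervals, which overlapped those of the lung groups.

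The enzymes of serine, glycine and one-carbon synthesis ran from abundant to low. Phgdh, the first step from glycolysis into serine, was the most abundant amino acid stress gene, at 229.7 CPM in WT lung, 202.3 in Prf1-/- lung, 253.9 in Prf1-/- bone and 240.1 in the unlisted cells. The next step, Psat1, was far lower, between 26.9 CPM in bone and 36.7 in WT lung, and the last, Psph, lay between 50.02 and 68.3 CPM. Mitochondrial Mthfd2 stood at 151.3, 161.6, 129.3 and 175.3 CPM and its upstream partner Shmt2 at 52.3, 52.9, 46.2 and 60.9 CPM. Both were lowest in bone and highest in the unlisted cells. Asns, which makes asparagine, was even, at 118.5, 107.7, 120.0 and 126.1 CPM.

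The transporters differed from each other by more than the groups did. Slc3a2, the heavy chain shared by several amino acid exchangers, stood at 198.4 CPM in WT lung, 196.8 in Prf1-/- lung, 182.4 in bone and 203.2 in the unlisted cells. Slc7a5, the light chain with which it imports leucine, was read at 19.7, 15.2, 17.7 and 42.5 CPM. The 3 hashtag groups overlapped for Slc7a5, while the unlisted cells stood above each of them. The cystine importer Slc7a11 had 18, 14 and 3 UMIs in the hashtag groups, at 4.66, 2.96 and 2.31 CPM. Of the 4 tRNA synthetases, Gars lay between 158.6 and 188.1 CPM, Nars between 160.1 and 187.8 and Sars between 157.8 and 189.3, while Aars was lower, between 69.2 and 78.6. Gars, Nars and Sars were highest in the unlisted cells and Aars in WT lung.

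In the folding arm the Hsp70 and Hsp90 of the ER led. Hspa5 (BiP) stood at 1120 CPM in WT lung, 973.4 in Prf1-/- lung, 1087 in Prf1-/- bone and 1087 in the unlisted cells. Hsp90b1 (GRP94) stood at 1072, 1103, 1077 and 1083 CPM. Their order changed between the groups. Hspa5 was above Hsp90b1 in WT lung and below it in Prf1-/- lung, with intervals of 946 to 1002 CPM and 1073 to 1133 CPM there. The disulphide isomerase Pdia6 was the third, at 501.4, 487.9, 487.1 and 491.2 CPM, and the 4 intervals overlapped. Pdia4 lay between 177.8 and 202.0 CPM and the lectin chaperone Canx between 346.3 and 395.3. The large chaperone Hyou1 was sparse, between 23.45 and 30.01 CPM.

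Co-chaperones of BiP covered a wide range. Dnajc3 lay between 157.0 CPM in bone and 195.8 in WT lung, Dnajb11 between 138.4 and 147.8, Sdf2l1 between 118.5 and 126.6, and Dnajb9 between 16.8 and 21.6. The secreted Manf stood at 457.1, 391.6, 395.5 and 416.8 CPM and its fellow Creld2 at 106.1, 84.2, 90.8 and 94.7 CPM. Both were highest in WT lung. Of the degradation genes, the mannosidase-like Edem1 stood at 58.2, 40.8, 43.1 and 48.3 CPM, again highest in WT lung. Herpud1, which scaffolds the ER ubiquitin ligase, stood at 54.8, 65.2, 76.2 and 72.1 CPM and was lowest there. Sel1l lay between 34.6 and 41.7 CPM. The mRNAs of the factors Xbp1 and Atf6 lay between 55.4 and 63.1 CPM and between 30.01 and 38.3 CPM.

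**Figure D1:**
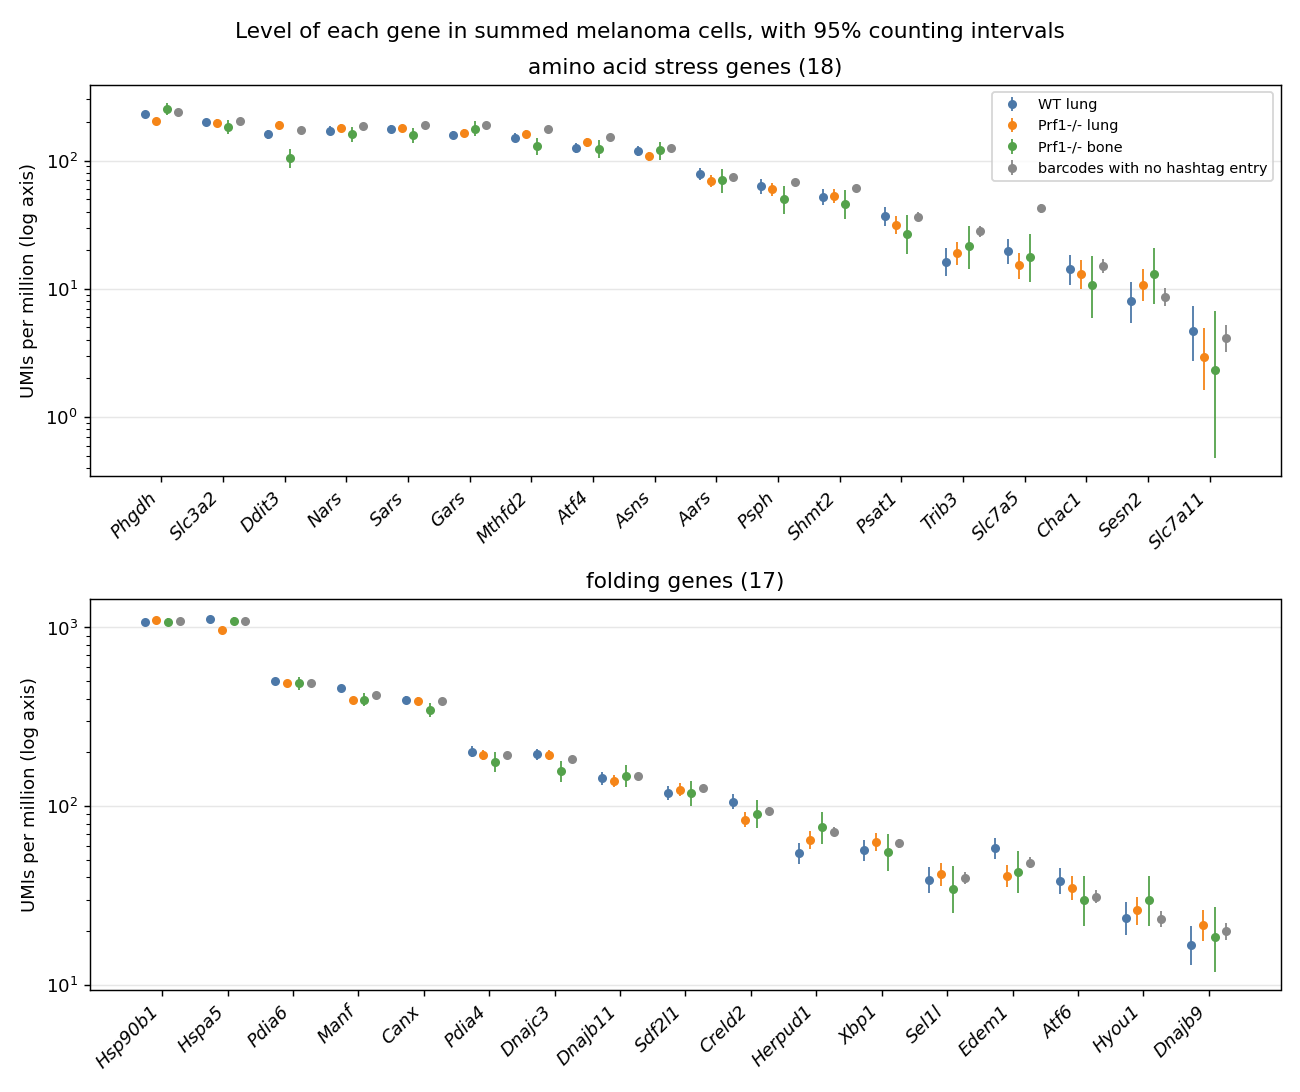
Level of each gene in CPM (log axis) in WT lung, Prf1-/- lung, Prf1-/- bone and the cells with no hashtag entry, with 95% counting intervals as bars, ordered by level in Prf1-/- lung (18 amino acid stress genes above, 17 folding genes below). Ddit3 in bone (104.7) lies below the other groups and Slc7a5 in cells with no hashtag entry (42.5) above them, while the folding genes lie close together.

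The first comparison set the lung tumours of Prf1-/- mice against those of WT mice. No gene of either arm was past 1.5-fold among the 13 amino acid stress genes and 16 folding genes at 20 CPM or more, and over all 5749 genes 49 were (0.852%). Ratios of the amino acid stress genes ran from 0.858 (Psat1) to 1.18 (Ddit3), with a median of 0.02 on the log2 scale. Those of the folding genes ran from 0.702 (Edem1) to 1.19 (Herpud1), with a median of -0.03. The median over all genes was 0.00. Summed levels of Prf1-/- lung over WT lung were 1.005 (0.974 to 1.04) for the amino acid stress genes and 0.951 (0.932 to 0.970) for the folding genes.

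The folding genes farthest below 1 in Prf1-/- lung, with counting intervals that left it out, were Edem1 at 0.702 (0.576 to 0.854), Creld2 at 0.794 (0.690 to 0.913), Manf at 0.857 (0.802 to 0.915) and Hspa5 at 0.869 (0.834 to 0.906). Hsp90b1 at 1.03 and Pdia6 at 0.973 had intervals that held 1. In the amino acid stress arm, Ddit3 was 1.18-fold higher (1.06 to 1.31) and Phgdh 0.880 (0.803 to 0.966), while Atf4 at 1.11 (0.986 to 1.25) had an interval that held 1. Among cells with 2000 or more genes and no more than 10% mitochondrial counts these 3 ratios turned, to 0.804 for Ddit3, 1.12 for Phgdh and 0.980 for Atf4. Without replicates, it is not known whether such small differences exceed those between mice.

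Bone was then set against lung within Prf1-/- mice, a comparison that shares the Prf1-/- lung cells with the previous one. Ddit3 was the only gene of the 31 at 20 CPM or more past 1.5-fold, in either direction. It was lower in bone at a ratio of 0.553 (0.459 to 0.663). Over all 5657 genes, 397 were past 1.5-fold (7.02%) and 267 of them were lower in bone (4.72%), so 1 gene in 31 is no larger a share than over all genes. The medians were -0.17 for the 14 amino acid stress genes and -0.03 for the 17 folding genes on the log2 scale, beside -0.02 over all genes. Summed levels were 0.931 (0.887 to 0.976) and 1.00 (0.971 to 1.03). The WT lung cells gave the same single gene against bone: Ddit3 at 0.6515 (0.537 to 0.785), with 423 of 5659 genes (7.47%) past 1.5-fold in either direction and 302 (5.34%) lower. The medians there were -0.16 and -0.10.

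Other members moved less, and not all with Ddit3. Mthfd2 was 0.800 (0.673 to 0.946) in bone over Prf1-/- lung, whereas Phgdh was 1.26 (1.10 to 1.42). Atf4 at 0.893 (0.747 to 1.06), Asns at 1.11 (0.926 to 1.34) and Trib3 at 1.13 (0.713 to 1.75) had intervals that held 1. In the folding arm, Dnajc3 at 0.811 (0.693 to 0.945) and Canx at 0.891 (0.802 to 0.989) were lower and Hspa5 was 1.12-fold higher (1.05 to 1.19). Herpud1 was 1.17 (0.923 to 1.47) against Prf1-/- lung and 1.39 (1.08 to 1.77) against WT lung. These ratios lie short of 1.5-fold in both directions. Under the 2000-gene filter Mthfd2 turned to 1.24, Atf4 to 1.13 and Hspa5 to 0.895 in bone over Prf1-/- lung, Trib3 stood at 2.55, and Herpud1 at 2.04 against WT lung. Trib3 was 0.826 in cells thinned to 1500 UMIs.

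The Ddit3 difference was also seen in the share of cells. After each cell was thinned to 1500 UMIs, 19.4% of 1227 WT lung cells held a Ddit3 UMI (17.2 to 21.7), 22.3% of 1519 Prf1-/- lung cells (20.2 to 24.4) and 13.2% of 385 bone cells (10.02 to 17.1). Without thinning the shares were 31.7%, 36.25% and 23.1%. The sorted cells were mainly of 1 tumour line, though markers of other cell types were also read. No background share from free RNA was estimated beside these shares. A single bone cell held 12 of the 136 Ddit3 UMIs of bone (8.82%), and without the top cell of each group the ratio to Prf1-/- lung was 0.516. Under a stricter filter of 2000 genes and 10% mitochondrial counts, which left 47 bone and 145 Prf1-/- lung cells, the ratio was 0.837 and no longer past 1.5-fold. The median of the amino acid stress genes in bone over Prf1-/- lung turned under that filter, to 0.03 on the log2 scale. Against WT lung it fell short of 1.5-fold under 4 alternatives, at up to 0.692.

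Beside these ratios, bone cells held 4395 CPM of proliferation genes against 3901 in Prf1-/- lung, 2989 against 2929 CPM of dissociation-induced genes and 10125 against 13287 CPM of melanoma markers. The Ddit3 ratio was 0.565 within the lower range of the proliferation share and 0.588 within the upper, split at its median. The part of digestion time was not tested.

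**Figure D2:**
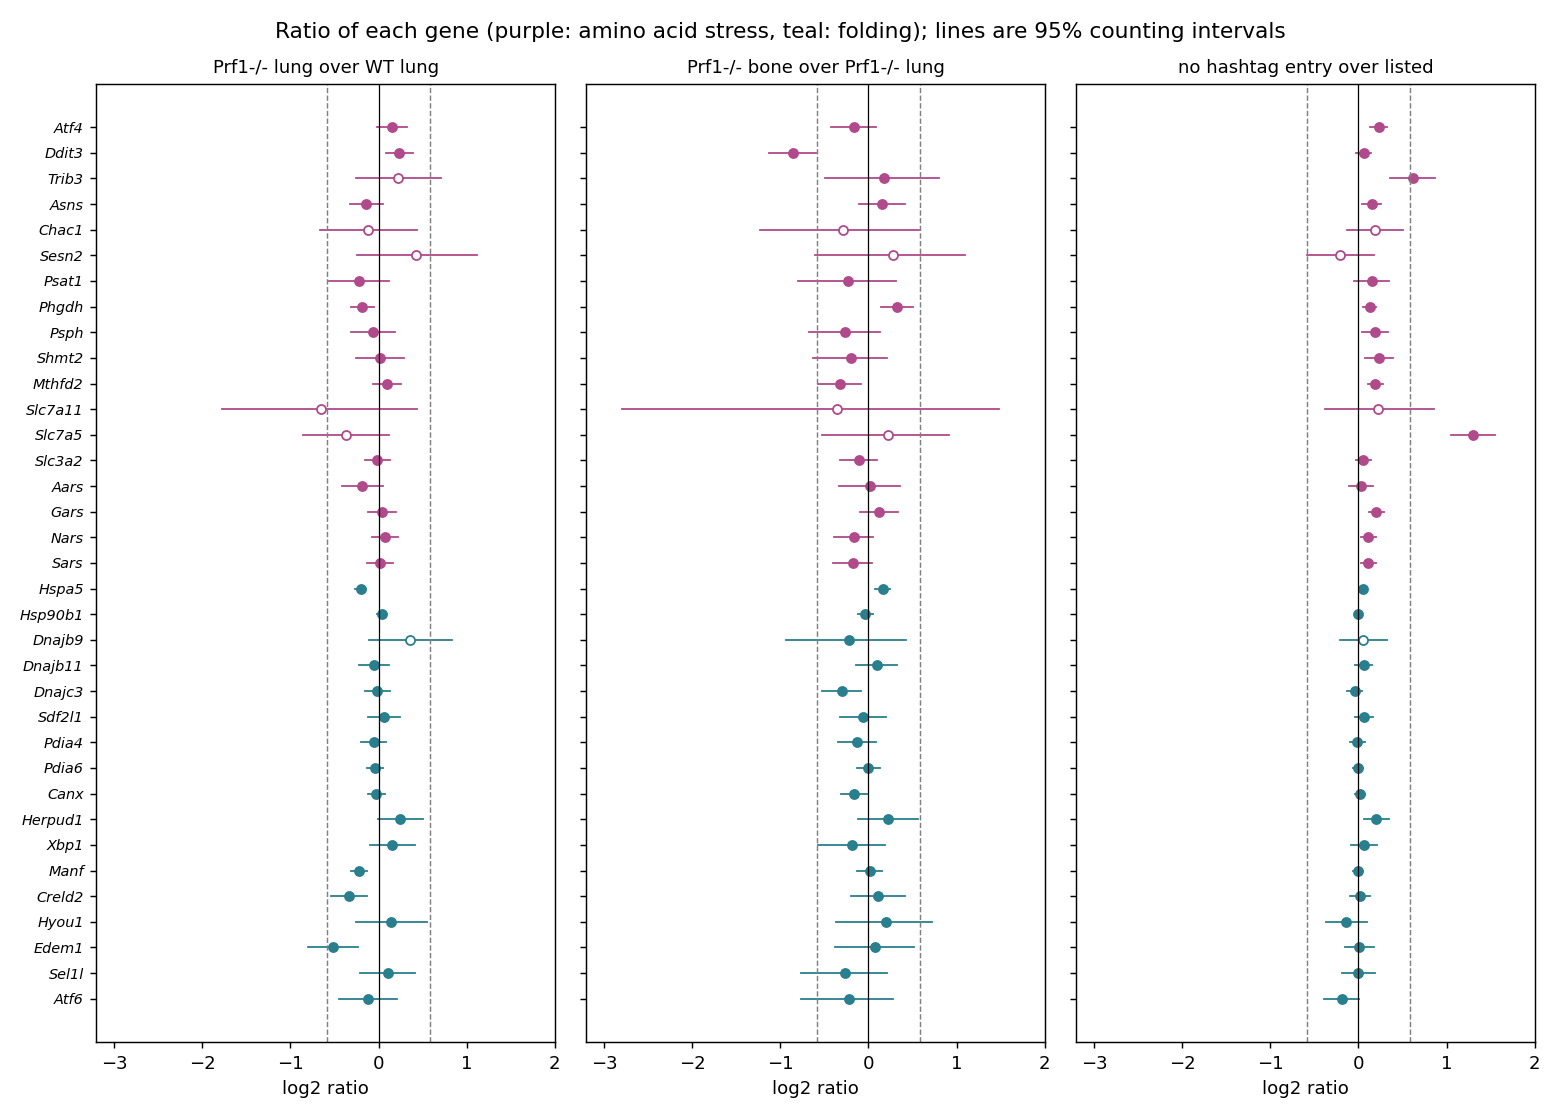
Log2 ratio of each gene for Prf1-/- lung over WT lung (left), Prf1-/- bone over Prf1-/- lung (middle) and cells with no hashtag entry over the 3 listed groups (right), with 95% counting intervals as lines, dashed lines at 1.5-fold and open points under 20 CPM. Ddit3 (0.553 in the middle) and, on the right, Slc7a5 (2.46) and Trib3 (1.53) are the filled points beyond the dashed lines.

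Wider lists of the same responses gave few further calls. Between bone and Prf1-/- lung, 7.02% of all 5657 genes were past 1.5-fold, and 4.72% were lower in bone. Of 32 other amino acid response genes, 16 reached 20 CPM between bone and Prf1-/- lung and 2 were past 1.5-fold, both lower in bone. They were Atf3, a stress-induced repressor, at 21.55 against 53.53 CPM (0.403, 0.262 to 0.596), and Nupr1, a small stress-induced chromatin protein, at 58.5 against 105.8 CPM (0.553, 0.429 to 0.705). Both were also lower than in WT lung, where they stood at 44.2 and 120.8 CPM. The 2 most abundant genes of that list went opposite ways, with Map1lc3b at 1.14 (1.05 to 1.24) and Sqstm1 at 0.708 (0.623 to 0.802). None of 16 other tRNA synthetases was past 1.5-fold, and the 2 most abundant, Eprs and Lars, stood at 0.998 and 0.906.

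Of 51 further folding and secretion genes, 43 reached 20 CPM and 1 was past 1.5-fold, no larger a share than over all genes (7.02%). It was Hspa13, an Hsp70-like protein of the ER, at 22.3 against 41.9 CPM (0.533, 0.348 to 0.789). The 2 most abundant, Sec61b of the translocon and the lectin chaperone Calr, were 1.11 (1.05 to 1.17) and 1.13 (1.06 to 1.20). In the lung comparison none of these lists had a gene past 1.5-fold, beside 0.852% of all genes. The nearest was Ero1l, the ER oxidase, at 64.95 CPM in Prf1-/- lung against 45.5 in WT lung (1.43, 1.18 to 1.73), chosen for mention after its value was seen.

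The unlisted cells differed from the listed ones in the amino acid stress arm. All 15 of its genes at 20 CPM or more were higher in the unlisted cells than in the pooled listed cells, with a median of 0.15 on the log2 scale and a summed ratio of 1.115 (1.095 to 1.136). Not all were above each group: Ddit3 (174.0 CPM) lay below Prf1-/- lung (189.1), Aars (74.4) below WT lung (78.6) and Phgdh (240.1) below bone (253.9). Slc7a5 and Trib3 were among the 15 only through their level in the unlisted cells. Of the genes under the filter, Chac1 (15.1 CPM) was above each group. Sesn2 (8.69) lay below Prf1-/- lung (10.8) and bone (13.1), and Slc7a11 (4.13) below WT lung (4.66). The share of all genes that were higher in the unlisted cells was not counted. By rising class of genes detected, Ddit3 stood at 188.7, 173, 156.9 and 153.6 CPM in unlisted cells. In listed cells it stood at 201.8, 190.6, 157 and 113.8 CPM. The 16 folding genes were split, 8 higher and 8 lower, with a median of 0.01 and a summed ratio of 1.01 (0.999 to 1.02). Over all genes the median was 0.01. This is a comparison of barcodes by how the hashtag matrix was filled, not of conditions. The smallest hashtag total of any listed barcode was 503 counts. Fibroblast markers summed to 36.5 CPM in the unlisted cells against 11.9, 6.98 and 7.70 in WT lung, Prf1-/- lung and bone, and erythroid markers to 6.14 against 0.517, 0.212 and 1.54. Without the cells that held 2 or more UMIs of markers of other cell types or none of the melanoma markers, the median of the amino acid stress genes was 0.15, Slc7a5 was 2.435-fold and Trib3 1.54-fold higher.

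Slc7a5 and Trib3 were the 2 members past 1.5-fold, both higher in the unlisted cells, where 18 of 5708 genes were past it in either direction (0.315%) and 5 were higher (0.0876%). Both lay under 20 CPM in the pooled listed cells. They reached the mean of 20 CPM only through their level in the unlisted cells (42.5 and 28.01 CPM), so the filter favoured these calls. Slc7a5 was 2.46-fold higher (2.08 to 2.92), the highest ratio of all 5708 genes. Against each group alone it was 2.16-fold (WT lung), 2.79-fold (Prf1-/- lung) and 2.40-fold higher (bone). Its partner chain Slc3a2 was 1.04-fold (0.982 to 1.10), and Ddit3 was 1.04-fold (0.981 to 1.11). Trib3 was 1.53-fold higher (1.29 to 1.83), and 1.72-, 1.47- and 1.30-fold against the groups alone, so that its call held against WT lung and not against the other groups. Atf4 and Shmt2 followed at 1.17 (1.10 to 1.25) and 1.18 (1.06 to 1.31). In the folding arm Herpud1 was the highest, at 1.15 (1.04 to 1.27), and Atf6 the lowest, at 0.877 (0.764 to 1.01).

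The unlisted cells were shallower, with a median of 1251.5 genes per cell against 1422.5. Slc7a5 stood above the listed cells in each class of genes detected, and the part of depth was not tested. In cells with 1000 to 1249 genes it stood at 48.8 CPM (43.55 to 54.47) against 20.8 (14.96 to 28.27), and in cells with 2000 or more at 45.2 (31.5 to 62.8) against 17.95 (12.3 to 25.3). Trib3 stood at 30.7 (26.6 to 35.3) against 20.8 (14.96 to 28.27) and at 25.8 (15.8 to 39.9) against 15.7 (10.4 to 22.7), with overlapping intervals in both classes. After thinning to 1500 UMIs, a Slc7a5 UMI was found in 6.34% of unlisted cells and in 2.20%, 2.57% and 1.82% of the 3 groups, against 10.1%, 5.87%, 4.61% and 5.97% without thinning.

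**Figure D3:**
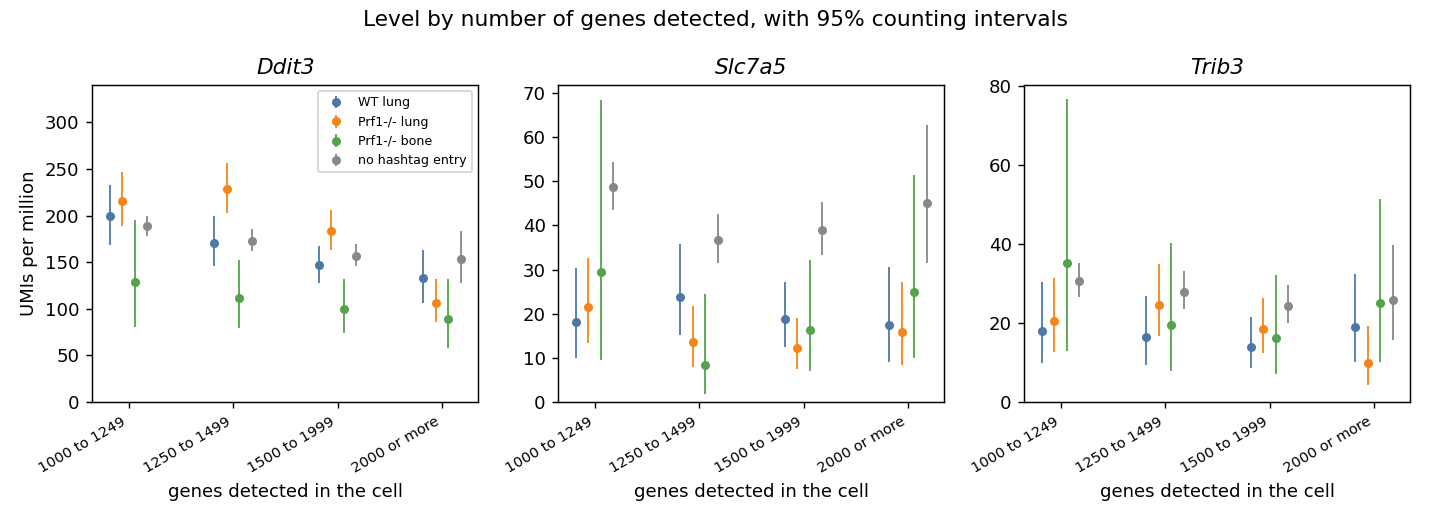
Level of Ddit3, Slc7a5 and Trib3 in CPM by the number of genes detected in a cell, for the 3 hashtag groups and the cells with no hashtag entry, with 95% counting intervals. Slc7a5 in cells with no hashtag entry is above the 3 groups in each class (48.8 CPM at 1000 to 1249 genes), and Ddit3 in bone is the lowest in each class.

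Class I antigen presentation genes differed in the same comparison. H2-K1 was 0.5315 (0.5075 to 0.5566) in unlisted over listed cells, at 208.5 against 392.3 CPM, and B2m was 0.696 (0.678 to 0.715). The interferon-induced Isg15 was 1.97-fold higher (1.80 to 2.15). Mouse hashtag antibodies of this kind commonly bind MHC class I and CD45, though the labels do not give the targets used here. Whether hashtag binding has a part in the Slc7a5 or Trib3 difference was not tested.

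Hashtag counts also varied inside the listed groups, and a split at the median count of each group gave a second view. Cells of the lower range were shallower, at a median of 2780 UMIs against 3018 over the 3 groups, and the part of depth was not tested. The lower range over the upper range had an amino acid stress ratio of 1.13 (1.10 to 1.17) over the 3 groups. This ratio was 1.10 (1.05 to 1.16) in WT lung, 1.17 (1.12 to 1.22) in Prf1-/- lung and 1.09 (0.997 to 1.18) in bone. Folding genes were at 1.02 (1.00 to 1.04). Trib3 was higher at low hashtag counts, at 22.6 against 14.4 CPM (1.57, 1.15 to 2.13), as was Slc3a2, at 215.4 against 177.5 (1.21, 1.11 to 1.33). Slc7a5 at 18.75 against 15.97 CPM (1.17, 0.860 to 1.61) had an interval that held 1. Within groups the Trib3 interval left out 1 in Prf1-/- lung, at 1.93 (1.24 to 3.065), and held it in WT lung, at 1.37 (0.812 to 2.345), and in bone, at 1.09 (0.4825 to 2.47). Slc3a2 was 1.21, 1.28 and 0.995 in the WT lung, Prf1-/- lung and bone cells, and Slc7a5 was 0.702 (0.268 to 1.74) in bone. H2-K1 was 0.497 (0.464 to 0.532) in the pooled split.

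The 2 arms varied separately from cell to cell. Over 9395 cells thinned to 1500 UMIs (7 shallower cells left out), the summed levels of the arms had a Pearson r of -0.04. Within WT lung, Prf1-/- lung, bone and the unlisted cells it was -0.07, 0.02, -0.02 and -0.05. These cells share 1 RNA library, and a cell held on average 2.88 UMIs of the amino acid stress arm and 6.76 of the folding arm. The r values are given as a description of sparse counts.

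Single pairs of genes were weakly related, and most of the highest lay within an arm. Of 153 pairs within the amino acid stress arm, 147 had r above 0, with a median of 0.05 and a maximum of 0.18 for Ddit3 with Trib3. Of 136 pairs within the folding arm, 109 were above 0, with a median of 0.02 and a maximum of 0.23 for Hspa5 with Hsp90b1. Of 306 pairs between the arms, 125 were above 0, with a median of 0.00. Among the 25 highest pairs, 14 lay within the amino acid stress arm and 9 within the folding arm. The other two both joined Herpud1 to the amino acid stress arm, with Chac1 (0.13) and Ddit3 (0.11). Herpud1 had r of 0.16 with the summed amino acid stress arm and 0.04 with the rest of its own arm. Dnajb9 (0.006), Atf6 (0.005) and Sel1l (0.013) had still lower r with the rest of the folding arm, and at most 0.015 with the amino acid stress arm.

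**Figure D4:**
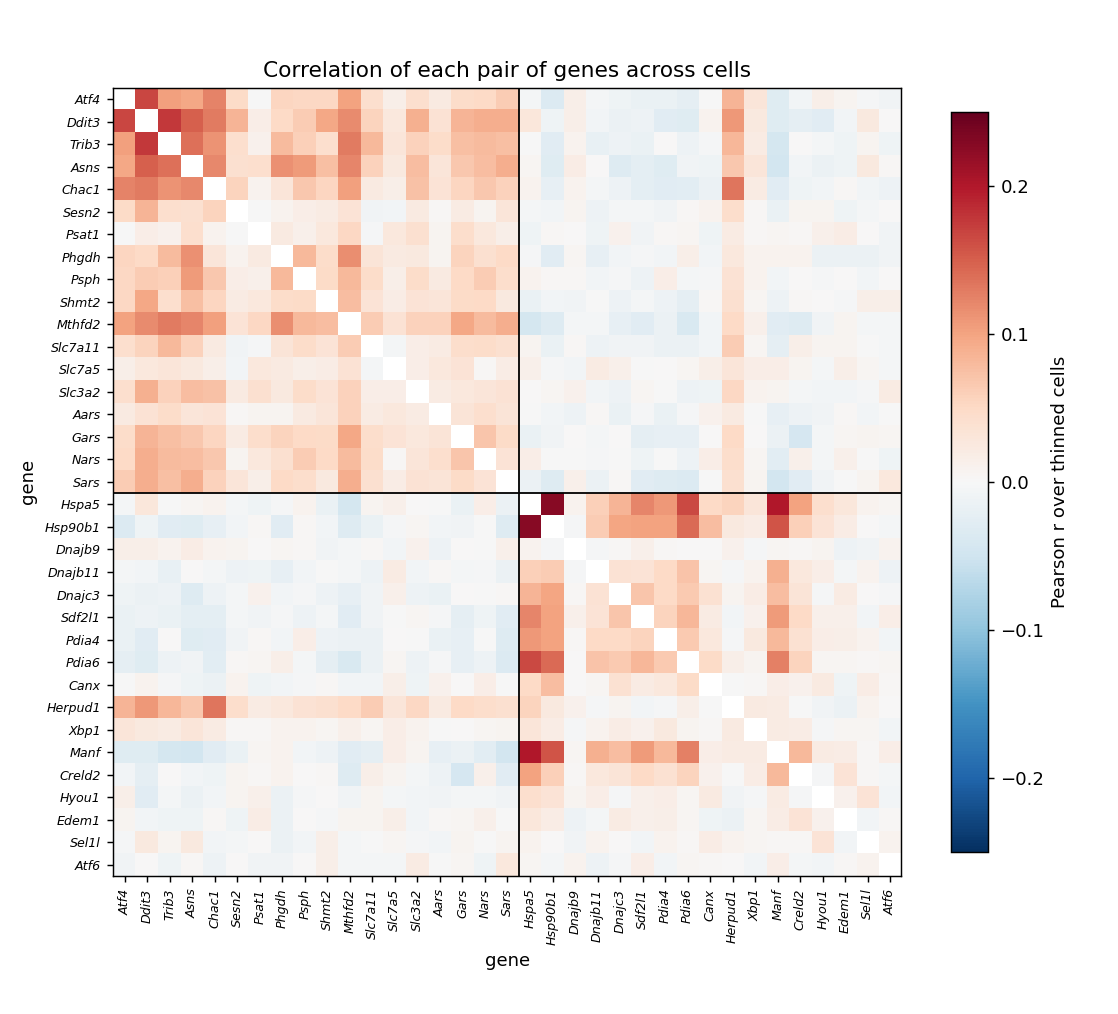
Pearson r of each pair of the 35 genes over 9395 cells thinned to 1500 UMIs, with black lines between the amino acid stress arm (first 18) and the folding arm (last 17). Most of the highest values lie in the blocks within each arm, and Herpud1, placed in the folding arm, shows its highest values with amino acid stress genes.

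Cells with many Ddit3 UMIs show which members went with it. In 158 cells with 3 or more thinned Ddit3 UMIs, all 17 other amino acid stress genes were higher than in the 7554 cells with none, with a median ratio of 2.26. Of the 158 cells, 114 were unlisted, 16 from WT lung, 24 from Prf1-/- lung and 4 from bone. Among genes at a mean of 20 CPM or more, 13 of 16 amino acid stress genes and 4 of 16 folding genes were at 1.5-fold or more, against 1309 of all 5987 genes (21.9%). Of those called, Trib3, Chac1, Sesn2 and the folding gene Dnajb9 lay under 20 CPM in the cells with none (15.9, 9.88, 8.47 and 19.3 CPM). They entered only through the cells where they are high. The median over all these genes was 1.10, so high ratios were common in these cells and the folding arm's share lay near that of all genes. Trib3 stood at 181.4 against 15.9 CPM (11.4-fold, 7.99 to 16.01) and Chac1 at 92.8 against 9.88 CPM (9.39-fold, 5.66 to 14.9). Asns was 3.91-fold higher (3.16 to 4.79), Shmt2 3.77-fold (2.73 to 5.09), Atf4 3.55-fold (2.895 to 4.323) and Mthfd2 2.63-fold (2.10 to 3.24). Slc7a5 at 1.41 (0.698 to 2.55), Aars at 1.38 (0.868 to 2.08) and Psat1 at 1.33 (0.633 to 2.48) had intervals that held 1.

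The folding arm did not follow as a whole, with 7 of its 17 genes above 1 and a median ratio of 0.928. Among genes at 20 CPM or more, 7 of 16 folding genes and all 16 amino acid stress genes were above 1, against 60.1% of all 5987 genes. Herpud1 stood out from its arm, at 223.6 against 59.5 CPM (3.76-fold, 2.79 to 4.98). Xbp1 was 1.70-fold higher (1.08 to 2.55) and Hspa5 1.15-fold (1.02 to 1.29). Dnajb9 at 1.75 (0.745 to 3.50) and Sel1l at 1.58 (0.858 to 2.685) had intervals that held 1. Creld2 at 0.5625 (0.2985 to 0.966), Pdia4 at 0.636 (0.428 to 0.911), Pdia6 at 0.655 (0.516 to 0.822) and Manf at 0.6945 (0.539 to 0.881) were lower. The abundant Hsp90b1 was also lower, at 0.859 (0.749 to 0.9815). Outside the members, Nupr1 was 7.47-fold (6.28 to 8.82), Atf3 7.16-fold (5.39 to 9.37) and Cdkn1a, the cell cycle inhibitor p21, 4.73-fold higher (3.96 to 5.61).

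Within groups the counts were small, and cells with 2 or more Ddit3 UMIs were used. Asns was 1.83-fold higher (1.06 to 2.97) in WT lung and 2.91-fold (2.43 to 3.46) in the unlisted cells, while in Prf1-/- lung it was 1.14 (0.578 to 2.04), an interval that held 1. Atf4 was 2.57-fold (1.60 to 3.96), 1.83-fold (1.18 to 2.73) and 2.88-fold higher (2.44 to 3.39) in WT lung, Prf1-/- lung and the unlisted cells. Trib3 was 8.165-fold higher than in cells with none in WT lung (3.05 to 20.0, 57 cells), 2.56-fold in Prf1-/- lung (0.649 to 7.38, 71 cells) and 7.75-fold in the unlisted cells (5.62 to 10.6, 308 cells). Bone had 7 such cells. Herpud1 was 3.41-fold higher in the unlisted cells (2.71 to 4.26) and 2.42-fold in Prf1-/- lung (1.31 to 4.18). In WT lung it had 1 UMI in those 57 cells, at 0.238 (0.00594 to 1.37), so its relation to Ddit3 was not seen there.

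Ranking by Hspa5 gave the other pattern. In 1139 cells with 4 or more thinned Hspa5 UMIs, all 16 other folding genes were above the level of the 2615 cells with none, with a median ratio of 1.56. Of them 8 were at 1.5-fold or more, against 60 of all 5767 genes at a mean of 20 CPM or more (1.04%). Hyou1, 1 of the 8, lay under 20 CPM in the cells with none (18.6 CPM) and entered only through the cells where it is high. Sdf2l1 was 2.32-fold higher (1.98 to 2.71), Manf 2.28-fold (2.09 to 2.47), Creld2 2.19-fold (1.84 to 2.60) and Hsp90b1 1.83-fold (1.74 to 1.93). Herpud1 was 1.48-fold higher (1.21 to 1.81), less than in the ranking by Ddit3. Of the 18 amino acid stress genes 5 were above 1, none reached 1.5 and the median was 0.944. Among genes at 20 CPM or more, all 16 folding genes and 5 of 15 amino acid stress genes were above 1, against 51.0% of all genes. Mthfd2 was the lowest, at 0.731 (0.629 to 0.848), and Nupr1 was 0.559 (0.468 to 0.665). Ddit3 itself was 1.18-fold higher (1.047 to 1.335). Both rankings use a member's own counts to choose cells, and they describe ranges of cells, not types.

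**Figure D5:**
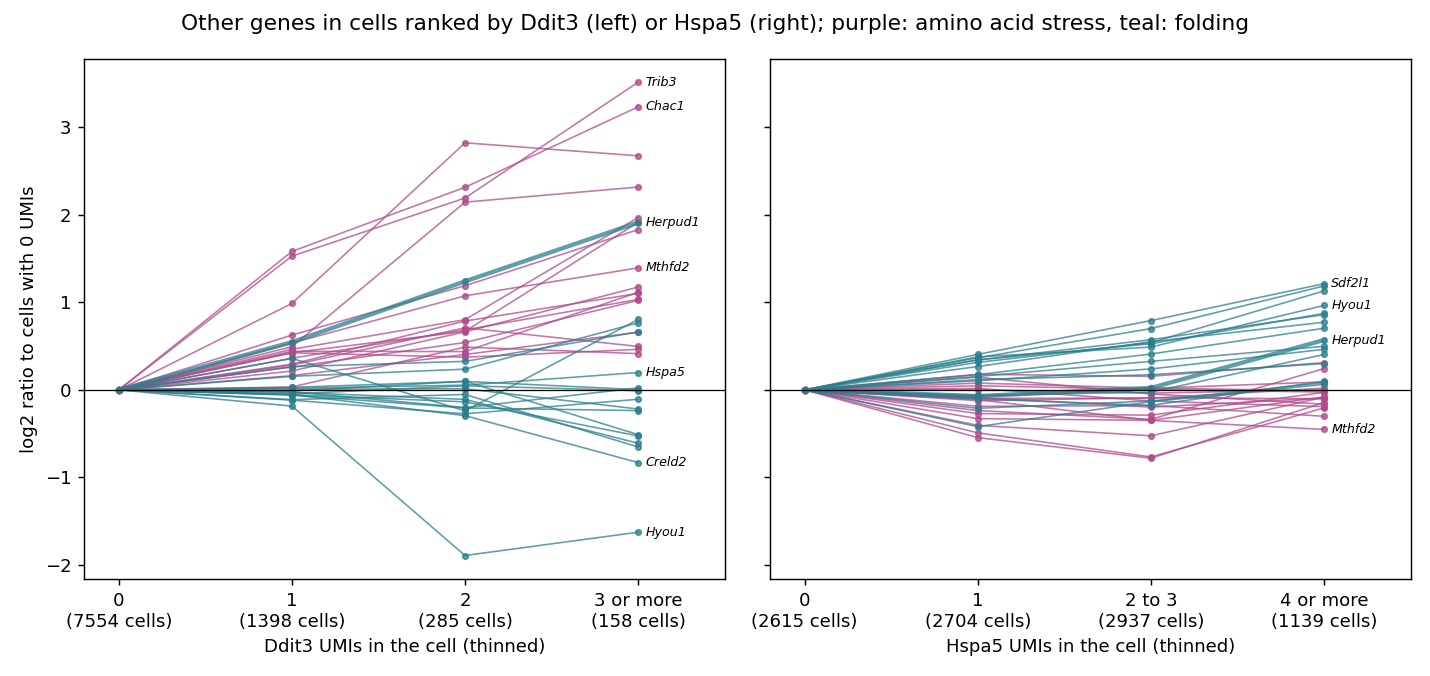
Log2 ratio of each other gene to its level in cells with 0 UMIs of the ranking gene, for cells ranked by Ddit3 (left) or Hspa5 (right) after thinning to 1500 UMIs, with the number of cells under each class. In the highest class amino acid stress genes (purple) lie above 0 with Ddit3 and folding genes (teal) on both sides of it, folding genes lie above 0 with Hspa5, and Herpud1 (thick line) lies above 0 in the highest class of both.

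Among 3013 other genes at 50 CPM or more, the 8 whose levels correlated most with the amino acid stress arm over the thinned cells were Nupr1 (r 0.36), Eif4ebp1 (0.32), 2410006H16Rik (0.28), Eif1 (0.26), Snhg1 (0.21), Tnfrsf12a (0.21), Eif5 (0.21) and Eif2s2 (0.19). With the folding arm they were Calr (0.29), Pdia3 (0.21), Tyrp1 (0.16), Sec61b (0.16), Selenos (0.14), Spcs2 (0.14), Hspd1 (0.13) and Rpn1 (0.11). Nupr1 had r of 0.30, 0.27, 0.28 and 0.40 in WT lung, Prf1-/- lung, bone and the unlisted cells, and Calr 0.28, 0.31, 0.20 and 0.29. Others were less even between the groups. Eif5 had r of -0.03 and Eif2s2 of 0.07 in bone, and Tnfrsf12a of 0.05 in WT lung, against 0.23, 0.19 and 0.23 in the unlisted cells. Each gene named for 1 arm had r between -0.15 and 0.03 with the other. The values rest on 1 library and mainly on cells of 1 line.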

How the data were processed

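UMI counts were used as the authors deposited them, as 1 gene matrix and 1 matrix of the 3 hashtags. Per the submitters' processing notes, Cell Ranger 6.1.2, Seurat 4.3.0 and the build mm10 were used, while per the file headers it was Cell Ranger 6.0.0. Libraries were 10x 3′ v3. Per the labels, sequencing aimed at a minimum of 50000 RNA and 5000 hashtag reads a cell. Barcodes under 1000 genes or over 15% mitochondrial counts were left out, and the fewest UMIs in a cell that passed were 1430. No doublet caller was run, and unlisted barcodes have no hashtag to show a doublet. The file holds 2 rows named Ddit3, of which the second had 0 UMIs and was not used.

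Summed counts of a group were scaled to 1000000 UMIs (CPM). A cell metadata table and a Seurat object described by the submitters were not used here. Levels have exact Poisson, ratios exact conditional binomial and shares exact Clopper-Pearson intervals at 95%. With 1 group per condition no test was run. Fixed seeds were used for thinning, and the ratio step was tested on simulated data. Python 3.11.15, numpy 2.4.6, scipy 1.17.1 and pandas 2.3.3 were used.

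The members and gene lists were chosen with earlier results of these data known. All members are accounted for. Of the wider lists the genes past 1.5-fold and the 2 most abundant are named, and for each arm the 8 other genes with the highest r.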

Additional observations from a re-analysis of the deposited data

How the results depend on the processing

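Alternatives to the hashtag rule, cell filter, scaling, averaging, depth, marker and proliferation ranges and low-level filters were recomputed, with those for the ranked cells, the call rule and single listed groups chosen after seeing the data. Of 374 values, 353 stayed within the main counting intervals or within 1.5 times the main count. The medians kept within the median of the genes' intervals except that of the amino acid stress genes in unlisted over bone cells alone, at 0.31 on the log2 scale. The median of the amino acid stress genes in bone over Prf1-/- lung ran from -0.22 to 0.03, above 0 only with at least 2000 genes. Medians with the ranked cells ranged from 1.965 to 2.52 (amino acid stress genes by Ddit3), 0.8325 to 0.903 (folding by Ddit3), 1.53 to 1.64 (folding by Hspa5) and 0.896 to 0.946 (amino acid stress by Hspa5).

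The other 20 were counts of genes past 1.5-fold. Between the lungs, where the main counts were 0, the 2000-gene filter gave 1 amino acid stress gene lower and 1 folding gene higher, no low-level filter gave 1 amino acid stress gene lower, and thinning or the lower proliferation range gave 1 folding gene lower each. In bone over Prf1-/- lung, the 2000-gene filter gave 1 amino acid stress gene higher and 2 folding genes lower, and a hashtag rule of 5 times the next gave 2 amino acid stress genes lower in place of 1. In bone over WT lung, the amino acid stress genes lower went from 1 to 0 with thinning or the lower proliferation range and to 2 with the upper range or no low-level filter, and 1 was higher with a filter of 5 CPM or none. Folding genes there went from 0 to 1 higher with the 2000-gene filter or the lower proliferation range, and from 0 lower to 1 with the hashtag rule of 5 times or thinning, 2 with the upper range and 4 with the 2000-gene filter. The 2000-gene filter left 47 bone cells. The cause of these moves was not tested. The 1299480 UMIs of bone limit what can be read there for genes under 20 CPM.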

Other observations

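Several textbook ATF4 targets of other tissues were scarcely read in these melanoma cells. Fgf21, a secreted starvation hormone, Vldlr, a lipoprotein receptor, and Stc2, a secreted glycoprotein, had 0 UMIs in the 3 hashtag groups. For such a gene the exact intervals reach 0.954 CPM (WT lung), 0.780 CPM (Prf1-/- lung) and 2.84 CPM (bone). Gdf15, a stress-induced cytokine, was read at 1.81, 2.54 and 0.770 CPM. Derl3, an ER degradation gene of secretory cells, also had 0 UMIs in all 4 sets.

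The kinases that phosphorylate eIF2 were all read at low levels. Eif2ak2 (PKR) was the highest, at 77.35, 79.76, 80.8 and 77.04 CPM in WT lung, Prf1-/- lung, bone and the unlisted cells. Eif2ak1 (HRI) lay between 23.1 and 30.5 CPM, Eif2ak4 (GCN2) between 16.6 and 19.8, and Eif2ak3 (PERK) between 12.3 and 15.2. Ern1, which encodes IRE1, lay between 3.08 and 4.65 CPM. Of the 12 genes in the list of sensors and kinases, 7 reached 20 CPM between bone and Prf1-/- lung. None was past 1.5-fold, beside 7.02% of all genes.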
